A study of Mus musculus with 20 samples.

Results

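The comparison described here set cranial-type motor neuron cultures after 36 h with cyclopiazonic acid (CPA) against the same cultures at the start of the experiment, 4 of the 20 libraries of the series. The cultures were motor neurons differentiated in vitro out of embryonic stem cells of the mouse, labelled NIP for the cranial type and NIL for the spinal type. In this field NIP stands for programming with Neurog2, Isl1 and Phox2a, and NIL for Neurog2, Isl1 and Lhx3, so that both factor sets share Neurog2 and Isl1, and counts cannot separate an inserted copy of such a factor from the gene of the cell. The libraries were chosen by their titles: NIP treated for 36 h with 20 µM CPA from day 2 of culture, and untreated NIP at 0 h, with 2 libraries in each group. Untreated NIP at 36 h, again 2 libraries, was used beside them, since a gene can be low after CPA because its level lies below the start or because it has not reached the level that untreated cultures have at 36 h. All groups were kept in motor neuron medium with serum, B27 supplement and growth factors. The treatment text gives 0, 6 and 12 h while the titles give 0, 12 and 36 h, and the titles were followed. The labels name neither clones nor the source of the replicates, so p-values measure the spread between these libraries, which may be technical.

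CPA blocks the SERCA pumps that load calcium into the endoplasmic reticulum (ER). Loss of ER calcium impairs protein folding there and starts the unfolded protein response (UPR). The sensors ATF6 and IRE1, which splices the mRNA of XBP1, raise chaperones and the machinery of ER-associated degradation. The sensor PERK slows translation through eIF2α and favours translation of ATF4, which raises genes of amino acid supply and, with CHOP, of later stress. Cranial motor neurons form from the hindbrain and brainstem, depend on Phox2a in some of their types, use acetylcholine and carry long axons rich in neurofilaments.

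Levels are given as CPM, read counts of a gene scaled by the size of its library. The 6 NIP libraries at 36 h and 0 h held 11161938 to 23516699 reads in genes, within a range of 7996454 to 30321152 over the series. The ribosomal precursor Rn45s took 11.7% to 14.0% of gene reads in 5 of the 6, and 38.6% in untreated 36 h replicate 1, which stands apart. Leaving Rn45s out gave 698 changed genes after CPA against 0 h, with 709 when it was kept. Untreated 36 h replicate 1 enters that comparison only through the shared fit. These counts therefore do not show how its Rn45s share bears on the comparisons with untreated cultures. Replicate 1 of each group forms set 1 and replicate 2 set 2, and the sets differed in markers of other cells across NIP. Set 2 had the greater level for each of 26 proliferation genes, with a median set difference of 1.36 on the log2 scale, for 18 of 19 endoderm and endothelium genes (2.16) and for 16 of 17 pluripotent stem cell genes (1.11).

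Marker levels of other cells also differed between the groups within a set. Summed over the 19 endoderm and endothelium genes, the level was 689 and 11515 CPM after CPA, 1010 and 5037 CPM untreated at 36 h and 1516 and 4553 CPM at 0 h, in sets 1 and 2. Set 2 was thus highest after CPA while set 1 was lowest after CPA. The 12 mesenchyme genes summed to 119 and 332 CPM after CPA, 48.3 and 125 CPM untreated and 111 and 128 CPM at 0 h. The 17 pluripotent stem cell genes summed to 101 and 225 CPM after CPA, 164 and 218 CPM untreated and 218 and 299.6 CPM at 0 h. Dcn, a proteoglycan of mesenchyme, had 0 counts in all 6 libraries, and Gfap, an astrocyte filament, had 1 count in all. These 2 genes do not stand for their lists. In those lists 12 of 14 mesenchyme genes and 6 of 14 glia and microglia genes had enough reads to be tested. The 19 tested neural progenitor genes summed to 742 and 649 CPM after CPA, 646 and 698 CPM untreated and 1416 and 1422 CPM at 0 h. Their list median against 0 h was -0.20 with CPA and -1.16 untreated, and with CPA edgeR called 1 lower, Vim (6 lower and 0 higher at unadjusted p under 0.05, 3 lower by DESeq2). In such bulk samples fewer cells of a type and less RNA per cell cannot be told apart, and the part of these other cells in the results below was not tested.

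Phox2a, Isl1 and Neurog2, the factors that NIP stands for, had reads in every group. These reads may come from inserted copies, so they do not show the cell type. Phox2a, a homeobox factor of visceral and branchial motor neurons, had 127 and 174 CPM after CPA, 159.6 and 220.2 CPM untreated at 36 h and 166 and 322 CPM at 0 h. Isl1, a factor of all motor neurons, had 186 and 151 CPM after CPA, 159 and 122 CPM untreated and 167 and 120.3 CPM at 0 h. CPA and 0 h overlapped for both, and neither change against 0 h passed the test (log2 change -0.61 ± 0.47, adjusted p = 0.505 for Phox2a, and 0.24 ± 0.17, adjusted p = 0.438 for Isl1; edgeR quasi-likelihood test). Neurog2, the shared programming factor, had 115 and 194 CPM after CPA, 88.3 and 76 CPM untreated and 90.8 and 89.7 CPM at 0 h, with both CPA libraries highest (0.76 ± 0.20 against 0 h, adjusted p = 0.0396), a call lost in 3 of 6 leave-one-out fits (adjusted p of up to 0.432 without CPA replicate 2) and without the block (0.178). Chat, the enzyme that makes acetylcholine, was low in every group, with 6.64 and 7.41 CPM after CPA, 8.82 and 7.52 CPM untreated and 7.38 and 7.49 CPM at 0 h.

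After 36 h of CPA, 709 of 14792 tested genes (4.79%) differed from 0 h, 361 higher (2.44%) and 348 lower (2.35%; edgeR quasi-likelihood test on all 20 libraries with the replicate number as a block, Benjamini-Hochberg adjusted p under 0.05). The median log2 change of all tested genes was 0.00738. Both CPA libraries were above both 0 h libraries for 2836 of the 14792 tested genes (19.2%) and below both for 2618 (17.7%). Where CPA and 0 h are said below not to overlap, that can be read against these 2 percentages. Of the called genes 155 in each direction moved by at least 1 on the log2 scale, and 16 rises and 33 falls by at least 2. Each called gene went the same way in both sets, which the test favours. The log2 change against 0 h is the sum of the change of untreated cultures over 36 h and the CPA difference at 36 h, which share the libraries used here. Untreated cultures differed from 0 h in 1345 genes (9.09%), 694 higher (4.69%) and 651 lower (4.4%). CPA at 36 h differed from untreated at 36 h in 1517 genes (10.3%), 755 higher (5.1%) and 762 lower (5.15%). The numbers of called genes in the lists below can be read against these shares of all tested genes. Leaving out 0 h replicate 1 or untreated replicate 1 or 2 gave 250, 461 or 373 genes for the untreated change, and leaving out CPA replicate 2 or untreated replicate 1 or 2 gave 961, 707 or 486 for the CPA difference.

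Calls against 0 h depended on the replicate block and on single libraries. Without the block 21 genes were called, 10 higher and 11 lower, all 21 of them among the 709. Without 0 h replicate 2 the count was 73, of which 69 were among the 709, and without CPA replicate 2 it was 237. Without CPA replicate 1 it was 943, without 0 h replicate 1 it was 465, and without untreated 36 h replicate 1 or 2 it was 616 or 603. A group left with 1 library is assumed to vary like the other groups.

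Among genes lower with CPA than untreated, fewer were called below the start than had a rise in untreated cultures that was not called with CPA. Of the 762 genes lower with CPA than untreated at 36 h, 107 (14.0%) were also lower than at 0 h, and 310 (40.7%) had risen in untreated cultures with no call for CPA against 0 h, a pattern termed rise absent here. Another 7 (0.919%) had risen in both but less with CPA, and 338 (44.4%) could not be placed, because no call against 0 h decided between these. The 310 genes were 2.1% of all 14792 tested, against which the numbers of this class in a list can be read. In the 107 genes below the start the median log2 change was -1.13 with CPA and -0.0195 untreated. Untreated cultures had no call for 86 of the 107, a rise for 13 and a fall for 8. In the 310 genes of absent rise the medians were 0.000807 with CPA and 1.16 untreated. The calls that define each class favour such medians, so the medians describe the classes and test nothing. A missing call does not show an unchanged level. The 95% interval of the change against 0 h lay within 1 log2 unit on either side of 0 for 227 of the 310.

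**Figure D1:**
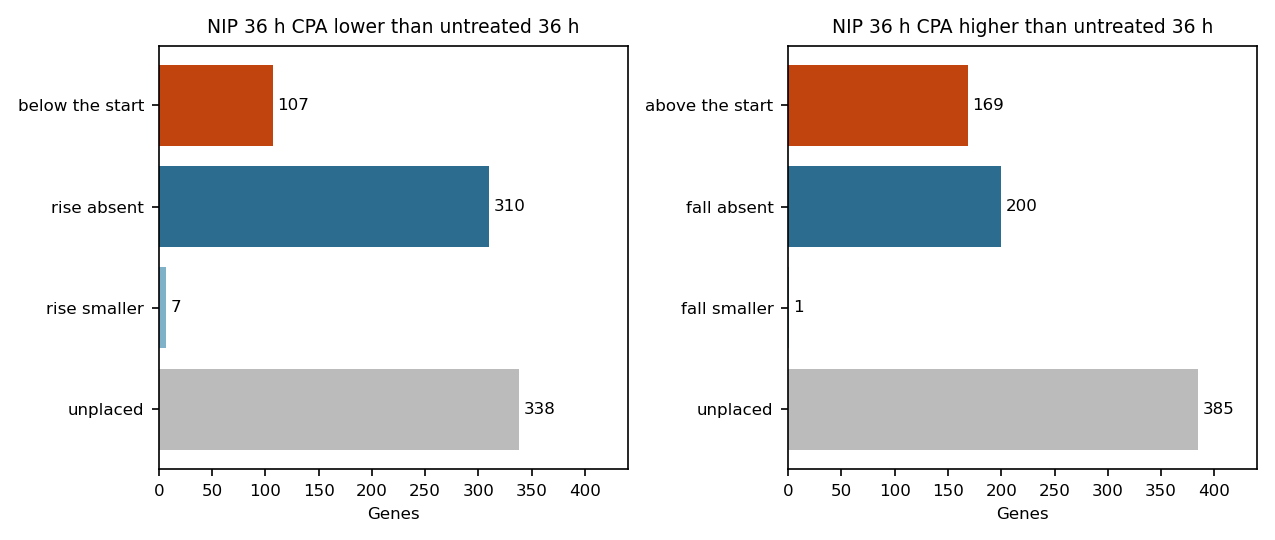
Genes that differed between CPA-treated and untreated NIP at 36 h, placed by their calls against 0 h. Bars give numbers of genes: on the left 107 below the start, 310 with the rise absent, 7 with a smaller rise and 338 unplaced; on the right 169 above the start, 200 with the fall absent, 1 with a smaller fall and 385 unplaced.

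The higher side had the mirrored split. Of the 755 genes higher with CPA than untreated at 36 h, 169 (22.4%) were also above 0 h and 200 (26.5%) had fallen in untreated cultures with no call for CPA against 0 h, termed fall absent. Seen from the start, of the 348 genes that fell 110 had also fallen untreated with no call between the 36 h groups, and 130 had neither of the other calls. Among the 361 that rose, 87 had also risen untreated with no call between the 36 h groups. The number below the start was 26 without 0 h replicate 2, 58 without CPA replicate 2, 59 or 53 without untreated replicate 1 or 2, 172 without CPA replicate 1, and 7 without the block. The number with the rise absent was 147 or 101 without untreated replicate 1 or 2, and 37 without the block. Without 0 h replicate 1 the order of these classes turned, with 109 below the start and 65 with the rise absent. Above the start there were 9 without 0 h replicate 2, 53 without CPA replicate 2 and 103 or 80 without untreated replicate 1 or 2, and the fall was absent for 46 without 0 h replicate 1 and 35 or 42 without untreated replicate 1 or 2. With at least 1 log2 unit asked of each call, 52 genes were below the start and 173 had the rise absent.

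**Figure D2:**
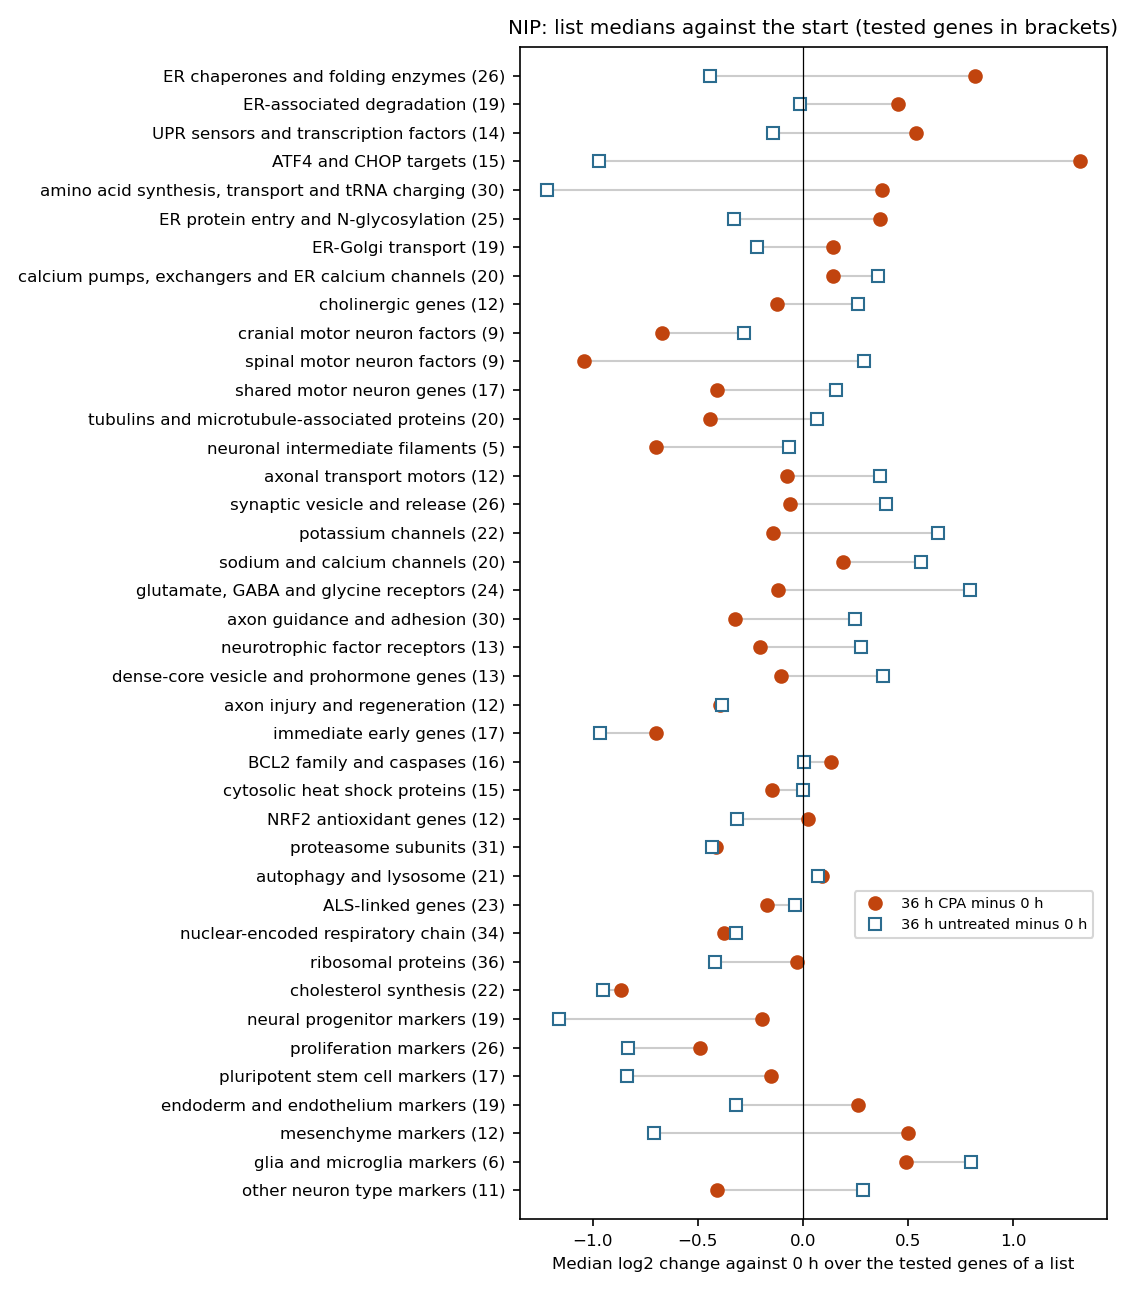
Median log2 change against 0 h over the tested genes of each list, filled circles for 36 h with CPA and open squares for 36 h untreated, with the number of tested genes in brackets. ER chaperones lie at 0.82 with CPA and -0.44 untreated, amino acid genes at 0.38 and -1.22, and cholesterol genes at -0.87 and -0.95.

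Among ER chaperones and folding enzymes 0 were called below the start after 36 h of CPA and many were above it. Of 26 tested genes 13 rose against 0 h, with a list median of 0.82, and 21 were higher at unadjusted p under 0.05. In untreated cultures 1 of the 26 rose and 6 fell (median -0.44), and against untreated at 36 h 20 were higher (median 1.19). Hspa5, encoding the major ER chaperone BiP, had 1360.0 and 1251 CPM after CPA, 305 and 332 CPM untreated and 693 and 425 CPM at 0 h. The groups did not overlap, and the change against 0 h was 1.21 ± 0.24 on the log2 scale (adjusted p = 0.00975; 0.97 and 1.56 within sets 1 and 2). At 12 h of CPA Hspa5 had been at 3165 and 3610.4 CPM, so its level at 36 h was the lower of the CPA times but still above the start.

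Other chaperone genes had like patterns. Creld2, a secreted ER protein of the disulfide isomerase type, had 36.6 and 60.0 CPM after CPA, 5.84 and 8.35 CPM untreated and 18.3 and 13.6 CPM at 0 h (log2 change against 0 h 1.48 ± 0.27, adjusted p = 0.00719). Hyou1, an ER chaperone of the HSP70 family, had 554 and 682 CPM after CPA, 176 and 219.7 CPM untreated and 307 and 196 CPM at 0 h (1.28 ± 0.23, adjusted p = 0.00493). Dnajc3, which encodes an ER co-chaperone that also inhibits PERK, had 128 and 95.3 CPM after CPA, 33.6 and 38.2 CPM untreated and 60.1 and 38.2 CPM at 0 h (1.17 ± 0.22, adjusted p = 0.00747). In each of them both CPA libraries were above both 0 h libraries. Ero1lb, an ER oxidase that re-forms disulfide bonds, rose by 1.23 ± 0.16 with CPA (adjusted p = 0.000848) and also untreated by 0.68 ± 0.16 (adjusted p = 0.0175). The count of 13 rising genes was 1 without 0 h replicate 2, 5 without CPA replicate 1, 10 without CPA replicate 2, 16 without 0 h replicate 1 and 0 without the replicate block. Against untreated at 36 h the count of 20 was 13 without untreated replicate 2 and 14 without the block.

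Degradation genes and UPR regulators rose in smaller numbers. Of 19 tested genes of ER-associated degradation 4 rose against 0 h (median 0.45) and 8 were higher than untreated at 36 h. Herpud1, which anchors the degradation complex, had 113 and 135 CPM after CPA, 25.4 and 27.5 CPM untreated and 55.6 and 36.7 CPM at 0 h (1.38 ± 0.22, adjusted p = 0.0026). Sel1l, the partner of the ubiquitin ligase HRD1 in that complex, had 362 and 412 CPM after CPA, 172 and 188 CPM untreated and 197 and 159.8 CPM at 0 h (1.11 ± 0.17, adjusted p = 0.00232). Syvn1, encoding HRD1 itself, changed by 0.90 ± 0.18 (adjusted p = 0.0116) and Derl1, a channel component, by 0.55 ± 0.15 (adjusted p = 0.0414). Without 0 h replicate 2 only 1 of the 4 kept its call, and the adjusted p of Sel1l was 0.0644 there. Herpud1 passed with any of the 6 NIP libraries left out.

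Among 14 UPR sensors and factors 5 rose against 0 h, while untreated cultures had 1 rise and 5 falls. The largest rise was at Ddit3, encoding the stress factor CHOP, with 83.2 and 133 CPM after CPA, 10.2 and 10.9 CPM untreated and 26 and 18.6 CPM at 0 h. It was higher in both sets (1.68 and 2.83), by 2.18 ± 0.32 overall (adjusted p = 0.0026), and kept its call whichever of the 6 libraries was omitted. Atf6, the sensor and factor of the ATF6 arm, had 102 and 109 CPM after CPA, 48.7 and 56.6 CPM untreated and 58.4 and 49.7 CPM at 0 h (0.96 ± 0.16, adjusted p = 0.003), and its untreated change was -0.04 ± 0.16 (adjusted p = 0.898). Atf4 and Xbp1 were called in neither direction against 0 h, with 0.64 ± 0.26 (adjusted p = 0.182) and 0.41 ± 0.14 (adjusted p = 0.106). Both fell untreated, with log2 changes of -1.23 ± 0.27 for Atf4 and -0.86 ± 0.14 for Xbp1 (adjusted p = 0.0109 and 0.00193), so both belong to the genes with the fall absent. The untreated fall of Atf4 lost its call in 3 of 6 leave-one-out fits (adjusted p of up to 0.148 without untreated replicate 2) and without the block (0.0544), while that of Xbp1 was called in all 6 (up to 0.0431) but not without the block (0.0666). Gene counts do not separate spliced from unspliced Xbp1 mRNA, nor do they measure translation of Atf4. The list's 5 rises became 1 without 0 h replicate 2, 3 without either CPA library and 1 without the block.

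Of 15 targets of ATF4 and CHOP 6 rose against 0 h (median 1.32) and 12 were higher than untreated at 36 h (median 2.73), while 7 fell untreated (median -0.97). Ppp1r15a, the phosphatase subunit that restores translation by acting on eIF2α, had 141 and 206 CPM after CPA, 28.1 and 35.7 CPM untreated and 64.5 and 52.9 CPM at 0 h (1.52 ± 0.23, adjusted p = 0.00197). Atf3, a factor of stress and axon injury, had 33 and 49.2 CPM after CPA, 21.3 and 19.5 CPM untreated and 12.6 and 20.7 CPM at 0 h (1.32 ± 0.25, adjusted p = 0.00726). Chac1, a glutathione-degrading enzyme, had 75.6 and 76.2 CPM after CPA, 4.05 and 3.3 CPM untreated and 27.8 and 25.5 CPM at 0 h. Its groups did not overlap, but the change of 1.49 ± 0.62 against 0 h did not pass (adjusted p = 0.204). Trib3, a pseudokinase induced by CHOP, passed (1.81 ± 0.45, adjusted p = 0.0433) but lost its call in 5 of 6 leave-one-out fits, with an adjusted p of up to 0.361 without 0 h replicate 2. The 6 rises of the list became 2 without CPA replicate 2 or without 0 h replicate 2, 4 without 0 h replicate 1, and 0 without the block.

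**Figure D3:**
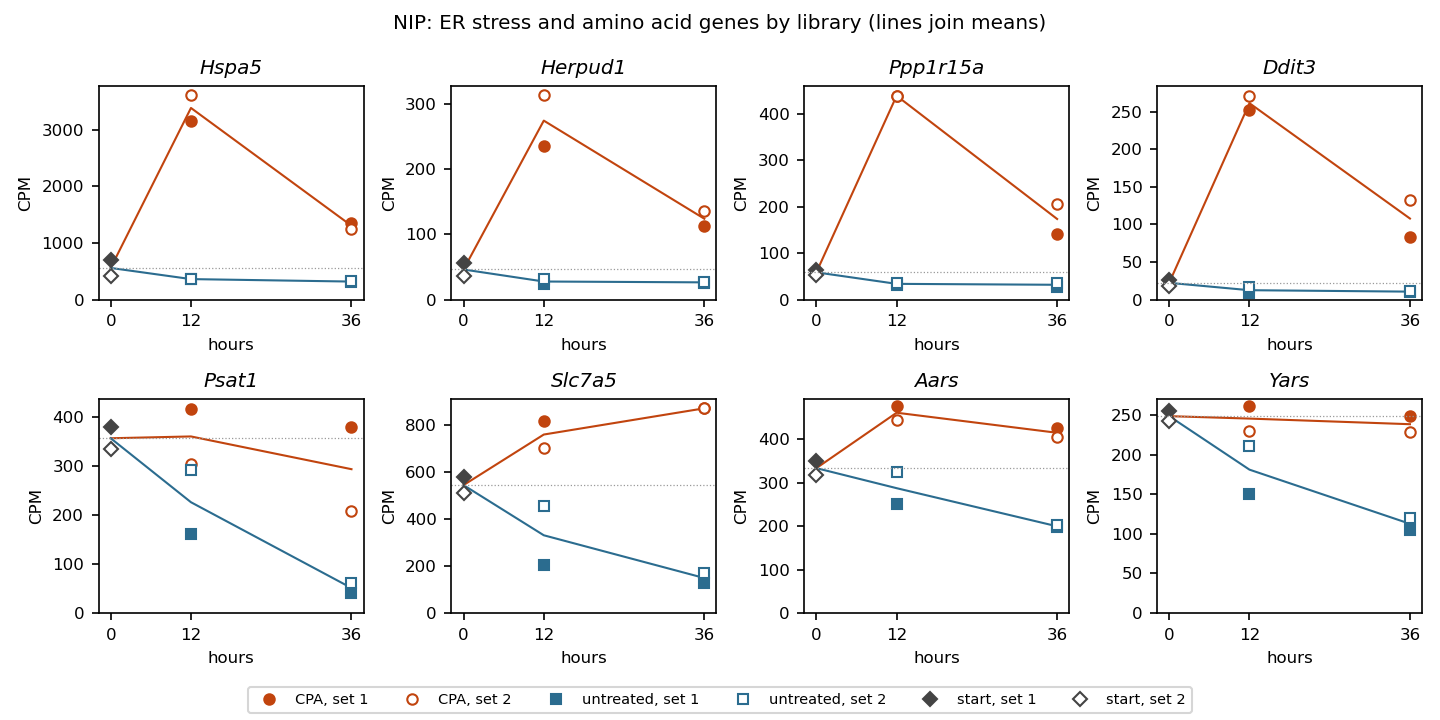
CPM of 8 ER stress and amino acid genes in the 10 NIP libraries at 0, 12 and 36 h, circles for CPA, squares for untreated and diamonds for the start, filled for set 1 and open for set 2, with lines through the means and a dotted line at the 0 h mean. Hspa5, Herpud1, Ppp1r15a and Ddit3 are highest at 12 h of CPA and above the start at 36 h. Psat1, Aars and Yars fall in untreated cultures and have no call against the start at 36 h of CPA.

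Genes of amino acid synthesis, transport and tRNA charging showed another pattern, a fall with time in untreated cultures with few calls after CPA in either direction. Untreated at 36 h, 28 of 30 genes had fallen below 0 h (median -1.22). After CPA 29 of the 30 were higher than untreated (median 1.51), but only 3 were above 0 h (Xpot, Aldh18a1 and Slc1a4; list median 0.38), and 26 were of the fall-absent class. At unadjusted p under 0.05, 11 were above 0 h and 0 below, and DESeq2 called 5 above and 0 below. The genes of this list named below other than Xpot were chosen after their values were seen. Yars, the tyrosyl-tRNA synthetase, had 248 and 228 CPM after CPA, 105 and 120.3 CPM untreated and 255 and 242 CPM at 0 h. CPA and 0 h overlapped, with a change of -0.06 ± 0.16 and a 95% interval of -0.41 to 0.28, while the untreated change was -1.14 ± 0.17 (adjusted p = 0.000861).

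Enzymes of serine synthesis were among the genes of the list with the widest untreated falls. Phgdh, the first enzyme of that path, had 169.9 and 174 CPM after CPA, 3.93 and 14.9 CPM untreated and 116 and 148 CPM at 0 h, with an untreated change of -3.90 ± 0.72 (adjusted p = 0.0095) and a change with CPA of 0.42 ± 0.61 (adjusted p = 0.754, 95% interval -0.94 to 1.78). Its untreated call was lost in 3 of 6 leave-one-out fits (adjusted p of up to 0.0744 without 0 h replicate 1). Psat1, the next enzyme, had 379 and 207 CPM after CPA, 41.2 and 61 CPM untreated and 379 and 333 CPM at 0 h (-0.27 ± 0.39 with CPA, 95% interval -1.12 to 0.58). Their wide intervals do not exclude a change of 1 log2 unit. Slc7a5, a transporter of large neutral amino acids, had 869 and 869 CPM after CPA, 126 and 171 CPM untreated and 577 and 509 CPM at 0 h, with CPA above the start in both sets but no call (0.67 ± 0.26, adjusted p = 0.143). Xpot, the exporter of tRNA from the nucleus, rose by 0.76 ± 0.17 (adjusted p = 0.0213). The 29 genes above untreated numbered 25 to 29 with any of the 6 libraries left out and 28 without the block. The 28 untreated falls numbered 13 without 0 h replicate 1, 10 without either untreated 36 h library and 15 without the block.

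**Figure D4:**
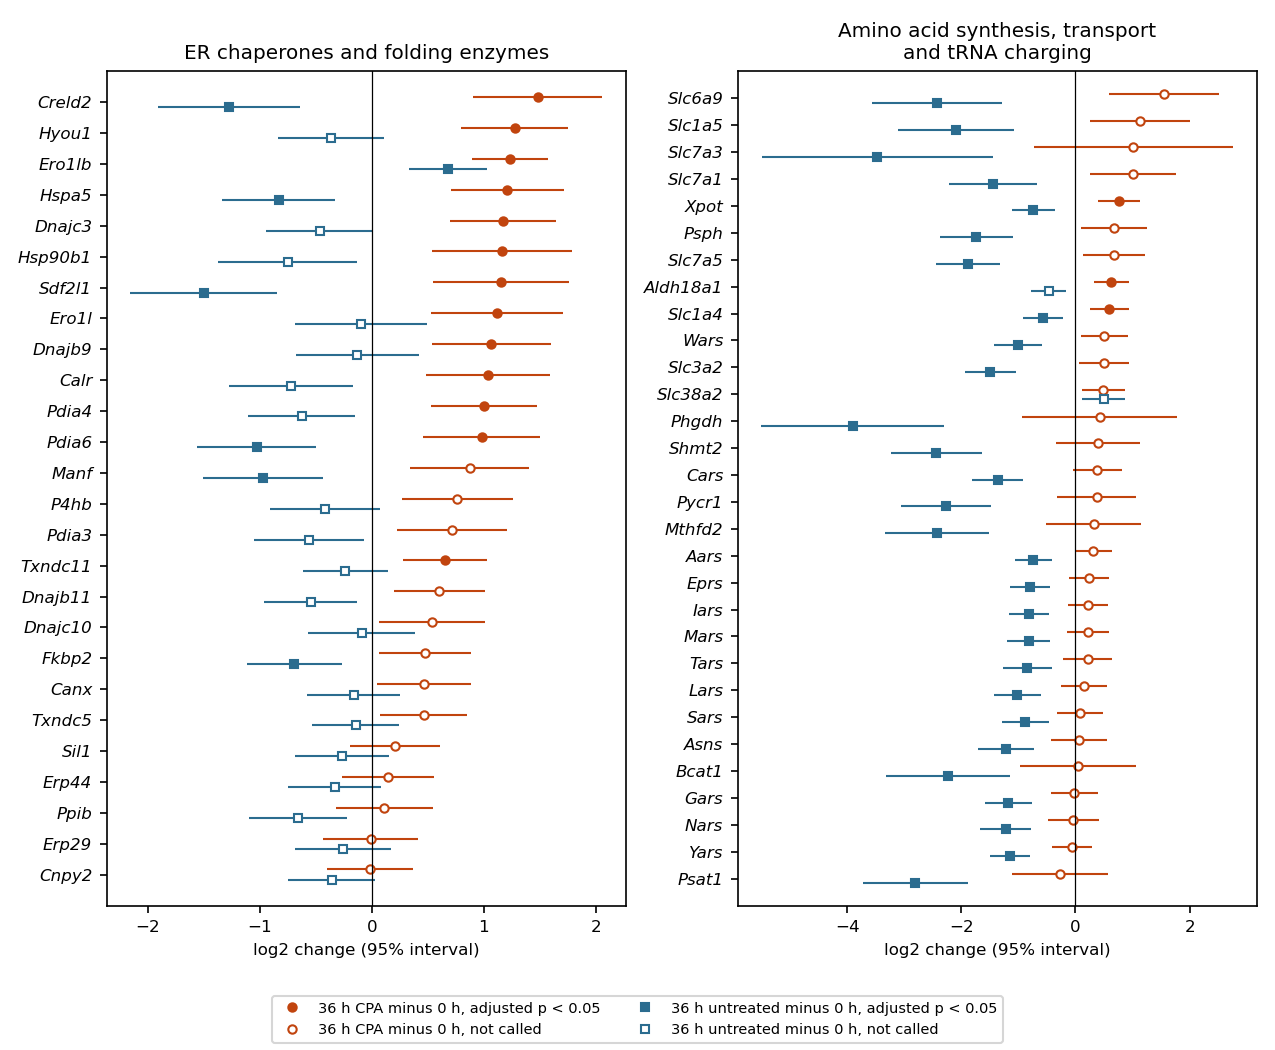
Log2 change against 0 h with its 95% interval for each tested gene of the chaperone list and the amino acid list, circles for 36 h with CPA and squares for 36 h untreated, filled where the adjusted p is under 0.05. In the chaperone list 13 circles are filled and lie above 0, and in the amino acid list 28 squares are filled and lie below 0 while 3 circles are filled.

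Promoter windows of both groups are shown because matches to ER stress elements were counted in genes above the start and to the ATF4 element in both groups. RefSeq windows (GRCm38.p6) of 250 bases before and 50 after the start of transcription were found for 11030 of the 14792 tested genes and searched on both strands. The elements were the ER stress element ERSE (CCAAT, 9 bases of any kind, then CCACG), its variant ERSE-II (ATTGG, 1 base, then CCACG), and the element bound by ATF4 with C/EBP partners, CARE (TGATGCAA). The shares count genes that have a window, and a gene with several windows counts once if any of them holds the element. ERSE was found for 19 of all 11030 genes (0.172%), for 8 of 128 genes above the start (6.25%) and for 0 of 150 of the fall-absent class. CARE was found for 82 of all 11030 genes (0.743%), 6 of 128 above the start (4.69%) and 11 of 150 with the fall absent (7.33%). ERSE-II was found for 8 of all 11030 genes (0.0725%). Of the chaperone list 7 of 20 genes had ERSE (35.0%), and of the amino acid list 6 of 22 had CARE (27.3%). The windows lie at chr2:34771840-34772139, plus strand for Hspa5, chr15:88819396-88819695, plus strand for Creld2, chr8:94386179-94386478, plus strand for Herpud1, chr8:111033592-111033891, plus strand for the alanyl-tRNA synthetase gene Aars, and chr11:120643699-120643998, minus strand for Pycr1, an enzyme of proline synthesis. Each is written 5′ to 3′ on the strand of its gene, with the element in capitals: ERSE in Hspa5 and Creld2, CARE and then ERSE-II in Herpud1, and CARE in Aars and Pycr1, where an element on the other strand reads as its reverse complement. The elements of Herpud1 do not overlap.
Hspa5: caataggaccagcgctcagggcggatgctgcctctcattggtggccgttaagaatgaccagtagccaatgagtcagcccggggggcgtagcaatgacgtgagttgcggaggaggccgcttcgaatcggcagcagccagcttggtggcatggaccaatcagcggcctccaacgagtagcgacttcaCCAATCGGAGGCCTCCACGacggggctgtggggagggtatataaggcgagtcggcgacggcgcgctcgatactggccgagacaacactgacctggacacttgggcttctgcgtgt
Creld2: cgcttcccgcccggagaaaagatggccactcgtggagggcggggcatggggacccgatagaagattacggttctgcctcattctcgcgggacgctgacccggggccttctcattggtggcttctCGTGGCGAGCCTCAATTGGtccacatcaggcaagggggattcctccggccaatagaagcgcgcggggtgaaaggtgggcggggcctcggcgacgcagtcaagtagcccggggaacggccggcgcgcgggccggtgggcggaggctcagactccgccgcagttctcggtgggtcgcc
Herpud1: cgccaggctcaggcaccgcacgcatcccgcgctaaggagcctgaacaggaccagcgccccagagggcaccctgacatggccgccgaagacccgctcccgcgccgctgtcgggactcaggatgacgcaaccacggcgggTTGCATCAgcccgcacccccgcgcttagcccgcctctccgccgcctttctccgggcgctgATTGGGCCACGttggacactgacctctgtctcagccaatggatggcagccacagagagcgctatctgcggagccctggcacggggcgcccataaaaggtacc
Aars: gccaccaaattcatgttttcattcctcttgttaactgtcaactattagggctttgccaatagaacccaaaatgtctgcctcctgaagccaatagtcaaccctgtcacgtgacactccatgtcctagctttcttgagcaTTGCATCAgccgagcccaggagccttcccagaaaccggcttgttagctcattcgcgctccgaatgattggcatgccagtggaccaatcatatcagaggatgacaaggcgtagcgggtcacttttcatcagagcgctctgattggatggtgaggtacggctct
Pycr1: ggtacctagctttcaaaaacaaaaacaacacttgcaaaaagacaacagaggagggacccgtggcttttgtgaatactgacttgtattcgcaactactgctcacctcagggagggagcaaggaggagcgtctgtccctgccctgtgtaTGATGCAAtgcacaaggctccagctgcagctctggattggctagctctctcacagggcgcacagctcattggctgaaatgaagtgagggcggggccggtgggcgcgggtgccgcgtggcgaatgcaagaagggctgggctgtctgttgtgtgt

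Of the genes with printed windows, Aars had 425 and 404 CPM after CPA, 197 and 202 CPM untreated and 349.5 and 317 CPM at 0 h (0.32 ± 0.15 with CPA, adjusted p = 0.243; -0.74 ± 0.15 untreated, adjusted p = 0.007). Pycr1 had 23 and 31.3 CPM after CPA, 2.62 and 6.38 CPM untreated and 15.7 and 27.7 CPM at 0 h (0.37 ± 0.33 with CPA, adjusted p = 0.569; -2.26 ± 0.37 untreated, adjusted p = 0.00229). All 5 genes fell untreated, with Hspa5 at -0.83 ± 0.24, Creld2 at -1.27 ± 0.30 and Herpud1 at -0.85 ± 0.22. The untreated calls of Hspa5, Creld2 and Herpud1 were each lost in 3 of 6 leave-one-out fits. They were also lost without the block (adjusted p = 0.169, 0.266 and 0.21). Against 0 h Hspa5, Creld2 and Herpud1 were called higher with CPA and Aars and Pycr1 were not called. The untreated call of Aars was lost in 3 of 6 leave-one-out fits (adjusted p of up to 0.0985 without untreated replicate 1), and that of Pycr1 without the block (adjusted p = 0.112). A match of letters is a description, not a site.

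ER protein entry, ER to Golgi transport and calcium genes had few calls against 0 h. Of 25 genes of protein entry and glycosylation 0 were called against 0 h by edgeR (12 higher and 0 lower at unadjusted p under 0.05, 1 higher by DESeq2; median 0.37), while 13 were higher and 1 lower than untreated at 36 h. Of 19 transport genes Sec24d, a coat subunit of vesicles leaving the ER (1.06 ± 0.25, adjusted p = 0.0244), and Mcfd2, a cargo receptor subunit (0.56 ± 0.15, adjusted p = 0.0404), rose. Sec24d lost its call in 2 of 6 leave-one-out fits and Mcfd2 in 5 (adjusted p of up to 0.287 and 0.404, both without 0 h replicate 2). Atp2a2, the SERCA pump that CPA blocks, had 627 and 421 CPM after CPA, 353 and 333 CPM untreated and 462 and 310.0 CPM at 0 h, with CPA and 0 h overlapping, and its change of 0.44 ± 0.18 did not pass (adjusted p = 0.18). Itpr2, an ER calcium release channel at low level, passed (1.93 ± 0.47, adjusted p = 0.0274), with 1.31 and 3.64 CPM after CPA and 0.543 and 0.632 CPM at 0 h, but not in 3 of 6 leave-one-out fits (adjusted p of up to 0.269 without 0 h replicate 2).

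Genes of the axon and of motor neuron type were among those below the start. Nefm, a neurofilament subunit, had 767 and 538 CPM after CPA, 1489 and 870.4 CPM untreated and 2209 and 1721 CPM at 0 h. The groups at 36 h with CPA and at 0 h did not overlap, and the fall was -1.61 on the log2 scale (-1.52 and -1.68 in sets 1 and 2; adjusted p = 0.000231). Untreated cultures changed by -0.78 ± 0.18 (adjusted p = 0.0116), and CPA lay below untreated by a log2 difference of -0.83 ± 0.18 (adjusted p = 0.00672). Nefl, the light subunit, had 1033 and 620.4 CPM after CPA, 1557 and 1247 CPM untreated and 1740.2 and 1834 CPM at 0 h (-1.16 ± 0.21, adjusted p = 0.00538). Of the 5 tested filament genes these were the 2 called against 0 h. Prph, encoding peripherin, was not called (0.16 ± 0.18, adjusted p = 0.662) and overlapped between groups, with 599.5 and 784 CPM after CPA and 524 and 715 CPM at 0 h. Nefm kept its call whichever of the 6 libraries was omitted, while Nefl had an adjusted p of up to 0.109 without 0 h replicate 2 and lost its call in 2 fits. Without the block neither was called (adjusted p = 0.178 for Nefm and 0.157 for Nefl).

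Slit2 and Slit3, repulsive axon guidance ligands made by motor neurons, were lower than at the start. Slit2 had 24.3 and 14.3 CPM after CPA, 48.3 and 34.7 CPM untreated and 75.1 and 51.4 CPM at 0 h (-1.74 ± 0.20, adjusted p = 0.000231), and Slit3 had 27.4 and 14.8 CPM after CPA, 34.8 and 27.7 CPM untreated and 57.4 and 36.9 CPM at 0 h (-1.18 ± 0.20, adjusted p = 0.00365). Both kept their calls whichever of the 6 libraries was omitted, and neither without the block (adjusted p = 0.222 and 0.355). They were the 2 of 17 shared motor neuron genes called against 0 h, while 6 of the 17 were lower than untreated at 36 h. Of 30 guidance and adhesion genes 6 rose and 2 fell untreated against 0 h. With CPA 4 fell against 0 h (Slit2, Slit3, the semaphorin receptor Nrp2 and the adhesion protein Cntn2) and 1 rose, the ephrin receptor Epha5. Nrp2 and Epha5 were called the same way untreated. Of the 4 genes that fell with CPA only Slit2 was also called lower than untreated at 36 h. The 4 falls numbered 2 without either 0 h library, Cntn2 had an adjusted p of up to 0.361 (without 0 h replicate 2), and the rise was lost without CPA replicate 2 (adjusted p = 0.087) and without 0 h replicate 1.

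Lhx4, a homeobox factor better known in spinal motor neurons, had the largest fall of all genes named by size. It had 0.508 and 0.606 CPM after CPA, 5.72 and 2.25 CPM untreated and 7.43 and 6.23 CPM at 0 h, a change of -3.68 ± 0.34 (adjusted p = 7.52e-05) against -0.90 ± 0.27 untreated. Pou3f1, a POU factor of motor neuron subtypes, had 1.52 and 1.55 CPM after CPA, 5.96 and 3.85 CPM untreated and 10.2 and 7.31 CPM at 0 h (-2.51 ± 0.34, adjusted p = 0.000848). Both CPA libraries were lower than every untreated and 0 h library for both factors. Both kept their calls whichever of the 6 libraries was omitted and without the block (adjusted p = 0.0394 and 0.024). They were the 2 of 9 spinal factors called against 0 h. Of 9 cranial factors 0 were called by edgeR (3 lower and 0 higher at unadjusted p under 0.05, 1 lower by DESeq2; median -0.67), among them Tbx20, a T-box factor, with 23.5 and 4.51 CPM after CPA, 65.2 and 34.4 CPM untreated and 129 and 46.4 CPM at 0 h (-2.68 ± 0.76, adjusted p = 0.0758).

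**Figure D5:**
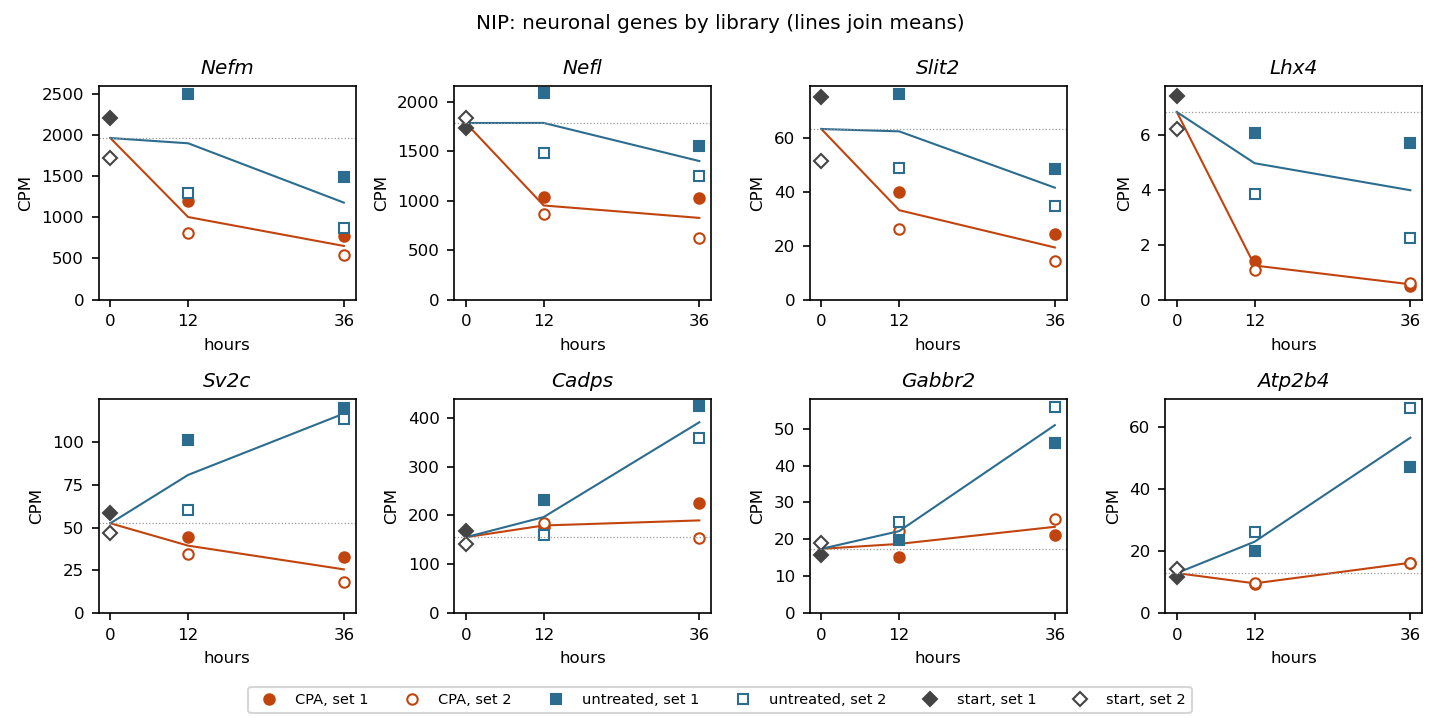
CPM of 8 neuronal genes in the 10 NIP libraries at 0, 12 and 36 h, drawn as for the stress genes. Nefm, Nefl, Slit2, Lhx4 and Sv2c lie below the start at 36 h of CPA. Cadps, Gabbr2 and Atp2b4 rise above the start in untreated cultures and have no call against it at 36 h of CPA.

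Tubulin genes had no call against 0 h. Of 20 tubulin and microtubule-associated genes 0 were called by edgeR (8 lower and 0 higher at unadjusted p under 0.05, 4 lower by DESeq2; median -0.44), and 6 were lower than untreated at 36 h. Tubb3, a neuronal tubulin with close paralogs in sequence, had 1939 and 1646 CPM after CPA, 2411 and 2150.1 CPM untreated and 2497 and 2581 CPM at 0 h (-0.52 ± 0.25, adjusted p = 0.234). Stmn2, a regulator of microtubules in growing axons, had 1358 and 944 CPM after CPA, 1899.8 and 1434 CPM untreated and 1633 and 1672 CPM at 0 h (-0.56 ± 0.20, adjusted p = 0.112). Both were lowest in the CPA libraries. Gap43, a growth cone protein, passed narrowly (-0.92 ± 0.25, adjusted p = 0.0417) and lost its call in 4 of 6 leave-one-out fits (adjusted p of up to 0.508 without 0 h replicate 2). Beside these falls stand the marker sums given above, where endoderm and endothelium genes were high with CPA in set 2 and low with CPA in set 1. The part of these other cells in the falls was not tested.

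Synaptic, channel and receptor genes had more rises against 0 h untreated than with CPA, a difference in counts that was not itself tested. Untreated cultures raised 7 of 26 synaptic vesicle and release genes, 7 of 22 potassium channel genes and 9 of 24 glutamate, GABA and glycine receptor genes, with medians of 0.40, 0.64 and 0.80. With CPA the rises against 0 h were 0, 2 and 2, with medians of -0.06, -0.14 and -0.12. Over all tested genes 4.69% rose untreated and 2.44% with CPA. The synaptic list had 3 genes higher and 2 lower at unadjusted p under 0.05 and 1 each way by DESeq2, while edgeR called 1 lower, Sv2c. Rise absent was the class of 2 of 26 synaptic, 5 of 22 potassium channel and 6 of 24 receptor genes, against 2.1% of all tested genes. The untreated rises numbered 1, 2 and 5 without 0 h replicate 1, 1, 5 and 5 without untreated replicate 2, and 1, 2 and 2 without the block.

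Gabbr2, a subunit of the metabotropic GABA receptor, had 21.2 and 25.5 CPM after CPA, 46 and 55.9 CPM untreated and 15.8 and 19 CPM at 0 h. The untreated rise was 1.55 ± 0.16 (adjusted p = 0.000134) and the change with CPA 0.43 ± 0.15 (adjusted p = 0.122, 95% interval 0.10 to 0.75). Kcna2, a delayed rectifier potassium channel of axons, had 2.33 and 1.68 CPM after CPA, 8.46 and 7.43 CPM untreated and 1.79 and 1.99 CPM at 0 h (0.11 ± 0.30 with CPA; untreated 95% interval of the log2 change 1.51 to 2.70, adjusted p = 0.000508). Syn2, a synapsin of vesicle pools, had 79 and 91.9 CPM after CPA, 175 and 163 CPM untreated and 44.8 and 56.6 CPM at 0 h, and CPA lay above the start in both sets without a call (0.75 ± 0.25, adjusted p = 0.101). Kcnc4 and Kcnc1, fast potassium channels, rose above the start (1.02 ± 0.23, adjusted p = 0.02, and 0.79 ± 0.21, adjusted p = 0.039), each with 3 of 6 leave-one-out calls lost, up to an adjusted p of 0.295 without 0 h replicate 2 and 0.419 without CPA replicate 2.

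Sv2c and Glra2 crossed the start, rising untreated and falling with CPA. Sv2c, a synaptic vesicle glycoprotein, had 32.9 and 18.2 CPM after CPA, 119.8 and 113 CPM untreated and 58.2 and 46.8 CPM at 0 h (-1.09 ± 0.23, adjusted p = 0.0129; untreated 1.19 ± 0.22, adjusted p = 0.00403). Its groups did not overlap in either direction. Glra2, a glycine receptor subunit, had 0.339 and 0.0673 CPM after CPA, 8.7 and 3.99 CPM untreated and 1.19 and 0.451 CPM at 0 h, a low level throughout (-1.93 ± 0.51, adjusted p = 0.0394). Sv2c lost its call against 0 h in 2 of 6 leave-one-out fits (adjusted p of up to 0.177 without 0 h replicate 2) and Glra2 in 4 (0.314 without 0 h replicate 1). Grm7, a presynaptic metabotropic glutamate receptor, rose in both, with 19.2 and 17 CPM after CPA, 31.8 and 25.7 CPM untreated and 5.59 and 6.05 CPM at 0 h (1.64 ± 0.28, adjusted p = 0.00365), and kept its call with any of the 6 libraries left out.

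Rises absent with CPA also covered calcium extrusion, secretion and cholinergic genes. Atp2b4, a calcium pump of the plasma membrane, had 16.1 and 16.2 CPM after CPA, 47 and 65.9 CPM untreated and 11.4 and 14.3 CPM at 0 h (0.34 ± 0.21 with CPA, 95% interval -0.10 to 0.79; 2.13 ± 0.22 untreated, adjusted p = 0.000134). Cadps, which primes dense-core vesicles for release, had 226 and 154 CPM after CPA, 424 and 359 CPM untreated and 168 and 143 CPM at 0 h (0.27 ± 0.18 with CPA, 95% interval -0.12 to 0.65; 1.33 ± 0.19 untreated, adjusted p = 0.000691, and 0.0703 without the block). Ache, the enzyme that breaks down acetylcholine, had 102 and 155 CPM after CPA, 220.0 and 297 CPM untreated and 123 and 214 CPM at 0 h (-0.38 ± 0.19 with CPA, adjusted p = 0.251; 0.64 ± 0.19 untreated, adjusted p = 0.0408). In each of these both untreated libraries were above both CPA libraries. The untreated call of Ache was lost in 3 of 6 leave-one-out fits and without the block (adjusted p = 0.302). In all, 3 of 20 calcium handling genes, 3 of 13 dense-core vesicle genes and 3 of 12 cholinergic genes were of this class, against 2.1% of all tested genes, and each number was 1 or 0 without 0 h replicate 1 and 1 without untreated replicate 2. Of the 12 cholinergic genes 0 were called against 0 h by edgeR (2 lower and 0 higher at unadjusted p under 0.05, and 0 by DESeq2).

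The genes with the widest absent rises lay partly outside the neuronal lists. By the fall against untreated cultures they were A2m, a protease inhibitor, Tnr, a matrix glycoprotein of the nervous system, Nov, a secreted matricellular protein, Adamts2, a procollagen protease, the cell cycle regulator Ccnd1, and Plekhd1. Tnr had 1.31 and 2.22 CPM after CPA, 15.6 and 20.0 CPM untreated and 1.63 and 1.44 CPM at 0 h (0.16 ± 0.47 with CPA against 3.55 ± 0.42 untreated). Ccnd1 had 6.64 and 7.61 CPM after CPA, 61.1 and 57.6 CPM untreated and 4.72 and 7.94 CPM at 0 h (0.22 ± 0.49 with CPA against 3.28 ± 0.49 untreated). Untreated libraries were above every CPA and 0 h library for both. Of the 7 genes with a smaller rise, Rspo2, a secreted activator of Wnt signalling, had 50.2 and 56 CPM after CPA, 124 and 80.4 CPM untreated and 21.4 and 31.8 CPM at 0 h (1.01 ± 0.24 with CPA, adjusted p = 0.0244; 1.96 ± 0.24 untreated). That class held 0 to 3 genes with a library left out and 0 without the block.

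Cholesterol synthesis genes fell with and without CPA. Of 22 genes 13 fell against 0 h after CPA (median -0.87) and 14 untreated (median -0.95), and 1 was higher and 0 lower with CPA than untreated at 36 h. Hmgcs1, an early enzyme of the path, had 695 and 273 CPM after CPA, 699 and 553 CPM untreated and 1274 and 1193 CPM at 0 h (-1.51 ± 0.26 with CPA, adjusted p = 0.00448; -1.01 ± 0.26 untreated, adjusted p = 0.0232). Both 36 h groups were below 0 h for this gene. The sterol element SRE (TCACNCCAC) was found for 1 of the 16 genes of this list with a promoter window (6.25%) and for 161 of all 11030 such genes (1.46%). The 13 falls numbered 1 without CPA replicate 2 and 0 without 0 h replicate 2 or without the block. The 14 untreated falls numbered 0 without untreated replicate 1, 5 without 0 h replicate 2 and 2 without the block. Hmgcs1 lost its call with CPA in 2 of 6 leave-one-out fits (adjusted p of up to 0.098) and its untreated call in 3 (up to 0.241), the highest values of both without 0 h replicate 2. Without the block neither was called (adjusted p = 0.343 with CPA and 0.438 untreated).

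Some immediate early, proteasome and respiratory chain genes were also lower than at 0 h. Egr3, an early growth response factor, had 0.212 and 0.741 CPM after CPA, 0.596 and 0.642 CPM untreated and 3.2 and 5.14 CPM at 0 h (-3.21 ± 0.52, adjusted p = 0.00284), and it kept its call whichever of the 6 libraries was omitted. Of 17 immediate early genes 3 fell after CPA and 6 untreated. Egr2 had 3 counts over the CPA libraries and 34 at 0 h, a ratio of 0.0677 with an exact 95% counting interval of 0.0133 to 0.2152. Of 31 proteasome subunits 6 fell after CPA (median -0.41) and 8 untreated, and of 34 nuclear-encoded respiratory chain genes 4 fell after CPA (median -0.37). Untreated, the median of the respiratory chain genes was -0.32, and edgeR called 0 in either direction (1 higher and 15 lower at unadjusted p under 0.05, 0 higher and 2 lower by DESeq2). Without CPA replicate 2 or 0 h replicate 2, 0 of either list and 1 of the immediate early genes were called, and without 0 h replicate 1 the proteasome count was 0. Vim, an intermediate filament of progenitors, had 614 and 506 CPM after CPA, 544 and 561 CPM untreated and 1214 and 1256 CPM at 0 h (-1.14 ± 0.17 with CPA and -1.16 ± 0.17 untreated), and kept its call whichever of the 6 libraries was omitted and without the block.

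The largest rise against 0 h of the genes named by size was at Nupr1. This gene, which encodes a stress-induced nuclear protein, had 1.06 and 9.43 CPM after CPA, 0 and 0.229 CPM untreated and 0.0543 and 0 CPM at 0 h. With 1 count at 0 h and 165 after CPA, the ratio was 126.5 with an exact 95% counting interval of 22.4 to 5028, and most CPA counts came from set 2. After it came Soat2, a cholesterol esterifying enzyme, the kinase Stk32a, Ddit3, and Tacr1, the receptor of substance P. Stk32a had 65.7 and 59.7 CPM after CPA, 4.53 and 3.03 CPM untreated and 24.1 and 7.58 CPM at 0 h (2.22 ± 0.55, adjusted p = 0.046), a call lost in 5 of 6 leave-one-out fits (adjusted p of up to 0.355 without 0 h replicate 2). Tacr1 had 9.99 and 14.3 CPM after CPA, 23 and 17.9 CPM untreated and 3.91 and 1.9 CPM at 0 h (2.08 ± 0.32, adjusted p = 0.00232), so the untreated libraries were the highest. Pak6, a kinase of the PAK family, likewise rose with and without CPA (1.89 ± 0.28 and 1.86 ± 0.29). Nupr1 and Soat2 were calls of 5 and 4 of 6 such fits, and Tacr1 and Pak6 of all 6.

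The largest falls after Lhx4 included Crabp2, Gucy1a3, Gucy1b3, Cdo1 and Slc18a2. Crabp2, which carries retinoic acid in the cell, had 0.931 and 2.02 CPM after CPA, 2.62 and 2.89 CPM untreated and 11.1 and 10.3 CPM at 0 h (-2.92 ± 0.31 with CPA, adjusted p = 0.000136; -1.94 ± 0.29 untreated). Gucy1a3 and Gucy1b3, the subunits of the guanylate cyclase that senses nitric oxide, both fell. Gucy1a3 had 1.78 and 0.741 CPM after CPA, 10.4 and 7.75 CPM untreated and 4.99 and 10.2 CPM at 0 h (-2.45 ± 0.41, adjusted p = 0.00355), and Gucy1b3 had 8.04 and 3.03 CPM after CPA, 23.6 and 15.4 CPM untreated and 22.2 and 24.7 CPM at 0 h (-2.23 ± 0.34, adjusted p = 0.0026). Neither had a call untreated against 0 h (adjusted p = 0.663 and 0.53). Cdo1, which oxidises cysteine, had 1.99 and 0.808 CPM after CPA, 21.8 and 10.5 CPM untreated and 6.84 and 9.21 CPM at 0 h (-2.52 ± 0.37, adjusted p = 0.00189). Slc18a2, the vesicular monoamine transporter, was also called lower untreated than at 0 h, with no call between the 36 h groups. That untreated call was lost without the block (adjusted p = 0.211). Slc18a2 had 4.53 and 4.11 CPM after CPA, 13.1 and 5.82 CPM untreated and 21.8 and 19.1 CPM at 0 h (-2.25 ± 0.33 with CPA, adjusted p = 0.00195). Of these, Gucy1a3 alone lost its call with a library left out, without 0 h replicate 2 (adjusted p = 0.0644).

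Axon injury genes went both ways. Ecel1, an endopeptidase of injured and developing motor neurons, had 27.7 and 15.8 CPM after CPA, 76 and 64.1 CPM untreated and 71.8 and 75.7 CPM at 0 h (-1.85 ± 0.26, adjusted p = 0.00151), and it kept its call whichever of the 6 libraries was omitted. Gadd45a, a stress gene of growth arrest, had 26.1 and 26.9 CPM after CPA, 8.94 and 7.75 CPM untreated and 13 and 14.7 CPM at 0 h (0.94 ± 0.18, adjusted p = 0.00884). Of the 12 genes 0 rose and 3 fell untreated against 0 h, with the neuropeptides Gal and Adcyap1 among the falls. The list median was -0.387 untreated and -0.395 with CPA. With CPA 2 rose against 0 h (Atf3 and Gadd45a) and 4 fell (Ecel1, Gap43, Gal and Adcyap1). Of these 4 only Ecel1 was also called lower than untreated at 36 h. Gal lost its call in 5 of 6 leave-one-out fits (adjusted p of up to 0.244 without CPA replicate 2). The 4 falls numbered 1 without CPA replicate 2 or 0 h replicate 2, 2 without either untreated library, and 0 without the block. Hnrnpa1, an RNA-binding protein linked to amyotrophic lateral sclerosis, the disease named in the title of the series, fell (-0.92 ± 0.23, adjusted p = 0.0302), but was not called without CPA replicate 2 or without either 0 h library.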

How the data were processed

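Total RNA of 20 libraries, 10 groups of 2, was prepared with a ribosomal RNA depletion kit, per the labels' protocols. The deposited values are read counts per gene, 1 file per library. Per the submitters' processing notes the tools were TopHat2 2.1.1, Bowtie2 2.3.2, Picard and HTSeq 0.6.1p1, with the build GRCm38 (mm10). The strand setting and annotation release are not given in the sources used here, so overlapping and antisense genes cannot be told apart, and reads shared by near-identical copies may be uncounted or split. The 5 summary lines of each file, which hold reads without a gene, stayed out of library sizes.

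The authors' counts were fitted with edgeR 4.0.16 (R 4.3.3; TMM scaling, filterByExpr, robust quasi-likelihood test) over all 20 libraries, with the replicate number of the titles as a block, and p-values were adjusted by Benjamini-Hochberg over 14792 of 24421 genes. A call is an adjusted p under 0.05. Values after ± are standard errors, and intervals cover 95%. CPM uses TMM-scaled library sizes. Intervals on counts cover counting error only. The numbers pair the libraries: the deviations of same-numbered libraries from their group means correlated in all 45 pairs of groups (0.243 to 0.763, median 0.467). Whether a number marks a shared culture or batch is not given in the labels. Alternatives were no block, median-of-ratios scaling, DESeq2 1.42.0, other filters, NIP alone, Rn45s left out, and each library left out. The fits were tested on simulated counts.

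Named genes were the 10 largest rises and 10 largest falls with at least 5 CPM and no overlap, 6 genes of each class of lower genes with at least 10 CPM, up to 4 called genes of each of 40 lists by p, and a panel of 30. Members and lists were chosen with earlier results of these data known. Neurog2, Psat1, Aars, Yars, Phgdh, Slc7a5, Pycr1, Cntn2, Tbx20, Cadps, Gabbr2, Atp2b4, Kcna2 and Gal fall outside that rule and were chosen after their values were seen. Some items are not reported here.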

Additional observations from a re-analysis of the deposited data

Results flagged for a closer look

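The change from 0 h to 36 h with CPA differed between NIP and NIL for 3 of the 30 panel genes, by an interaction test in edgeR that called 86 of 14792 genes (0.581%). Xbp1, a factor of the UPR, had 229.9 and 247 CPM after CPA and 178 and 180.3 CPM at 0 h in NIP, and 156 and 192 CPM after CPA and 58.5 and 66.6 CPM at 0 h in NIL, a difference in log2 change of -1.06 ± 0.20 (adjusted p = 0.0237). NIL started lower, and both lines ended between 156 and 247 CPM. Syt1, the calcium sensor of synaptic release, had 341 and 236 CPM after CPA and 250.4 and 219 CPM at 0 h in NIP, and 212 and 98.9 CPM after CPA and 399.7 and 240.2 CPM at 0 h in NIL, a difference of 1.33 ± 0.28 (adjusted p = 0.0437). Slc5a7, the choline transporter, had 71.3 and 18.6 CPM after CPA and 61.9 and 23.9 CPM at 0 h in NIP, and 41.7 and 13.9 CPM after CPA and 137 and 41.2 CPM at 0 h in NIL, a difference of 1.61 ± 0.35 (adjusted p = 0.0479). Syt1 and Slc5a7 were lower after CPA than at 0 h within each NIL set, and neither was called in NIP. None of the 3 passed without the replicate block (adjusted p = 0.634 for Xbp1, 0.88 for Syt1 and 0.965 for Slc5a7). With a library left out the adjusted p reached 0.165 for Xbp1 without NIP 0 h replicate 1, and 0.281 for Syt1 and 0.316 for Slc5a7 without NIL 0 h replicate 1. The 86 genes numbered 436 without NIP CPA replicate 2, 56 without NIP CPA replicate 1, 5 without NIP 0 h replicate 1, 1 without NIL 0 h replicate 1, and 159 or 34 without NIL CPA replicate 1 or 2.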

How the results depend on the processing

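No called change of a named gene turned its direction in the alternatives run. The pairing by replicate number matters most: without the replicate block, CPA against 0 h had 21 calls (10 higher, 11 lower), untreated against 0 h 191 (102 and 89), CPA against untreated 344 (197 and 147) and the difference between lines 0 in either direction. The classes then held 7 genes below the start, 37 with the rise absent, 0 with a smaller rise, 103 lower and unplaced, 6 above the start and 34 with the fall absent. DESeq2 called 1197 genes against 0 h, 685 of them lower, and 418 between lines (197 and 221), with 228 below the start and 13 with a smaller rise. NIP libraries alone gave 539 falls against 0 h, 204 genes below the start, 491 with the rise absent and 17 with a smaller rise. With no filter on low counts, 52 genes were lower in the difference between lines. With a log2 change of at least 1 the classes held 52, 173, 1 and 187 lower genes, in the order above, 70 above the start and 98 with the fall absent. The causes were not tested.

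With 1 library left out, calls for CPA against 0 h ranged from 73 to 943 (19 to 440 higher, 54 to 503 lower), for untreated against 0 h from 250 to 1514 (114 to 786 and 125 to 728), for CPA against untreated from 486 to 1579 (211 to 799 and 275 to 830) and between lines from 1 to 436 (1 to 131 and 0 to 331). Below the start ranged from 26 to 172, rise absent 65 to 325, rise smaller 0 to 3, unplaced 118 to 552, above the start 9 to 212 and fall absent 35 to 213. With 2 libraries a group, a missing call says little about a small change.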

Other observations

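Heat shock, cell death and autophagy genes had no call between 36 h of CPA and 0 h. Of 15 cytosolic heat shock genes edgeR called 0 (4 lower and 0 higher at unadjusted p under 0.05, 1 lower by DESeq2; median -0.15). Of 16 genes of the BCL2 family and caspases it called 0 (2 higher and 2 lower at unadjusted p under 0.05, 1 higher by DESeq2), and of 21 autophagy and lysosome genes 0 (5 higher and 1 lower, 0 by DESeq2; median 0.09). In 36 ribosomal protein genes, many with close paralogs, the median was -0.03 with CPA and -0.42 untreated. Hmox1, haem oxygenase, was the 1 of 12 NRF2 antioxidant genes called, with 21.6 and 54.4 CPM after CPA, 4.77 and 5.37 CPM untreated and 13.6 and 15.1 CPM at 0 h (1.24 ± 0.31, adjusted p = 0.0331; 0.355 without 0 h replicate 2).

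Lin28a, an RNA-binding protein of early development, was the 1 of 17 pluripotent stem cell genes called, with 82.4 and 99.2 CPM after CPA, 149 and 170.1 CPM untreated and 192 and 240.4 CPM at 0 h (-1.25 ± 0.18, adjusted p = 0.0016), and it passed with any of the 6 NIP libraries left out. Among other-neuron markers Dbh, which makes noradrenaline, fell at a very low level (0.169 and 0.0673 CPM after CPA and 1.25 and 0.632 CPM at 0 h; -2.93 ± 0.74, adjusted p = 0.0331; 0.196 without 0 h replicate 2, with 4 of 6 leave-one-out calls lost).

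Of the remaining lists, 0 of 12 axonal transport motors (1 lower at unadjusted p under 0.05 and by DESeq2) and 0 of 20 sodium and calcium channels (4 higher and 2 lower, 1 higher by DESeq2) were called against 0 h by edgeR. Untreated cultures had raised 5 of the 20 channels and 1 of the 12 motors. Of 6 tested glia genes 2 fell, Mbp and Aldh1l1, while the list median was 0.49 with CPA and 0.80 untreated. The 6 summed to 13.0 and 20.7 CPM after CPA, 32.2 and 31.0 CPM untreated and 24.7 and 43.5 CPM at 0 h. The 2 falls numbered 0 without CPA replicate 2, 0 h replicate 2 or the block, and 1 without CPA replicate 1 or 0 h replicate 1. Of 19 endoderm and endothelium genes 0 were called by edgeR or DESeq2, and 0 passed an unadjusted p under 0.05, but without CPA replicate 1 the list had 6 rises and without CPA replicate 2 it had 2 falls.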
